A study of Homo sapiens with 24 samples.

Results

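The extracellular matrix genes described here are 46 genes for collagens, laminins, other matrix proteins, the enzymes that process them, protease inhibitors and cell-surface proteoglycans. They form a list of symbols that was put together with earlier results of these data known, though no measured value enters the rule, and all 46 were found among 22925 gene symbols. Cytoplasmic RNA was sequenced from U2OS, a human osteosarcoma cell line, in 24 libraries. Before actinomycin D, which blocks transcription, each culture received 1 of 4 siRNA treatments: a control siRNA, an siRNA labelled for the long isoform of PAN3, an siRNA labelled for the short isoform, or both of them together. Each of these 4 series was sampled at 0, 0.5, 1, 2, 4 and 6 h of actinomycin D with 1 library per time, so no time point was repeated. PAN3 recruits the nuclease PAN2 to mRNA so that poly(A) tails are trimmed, and the design asks how mRNA loss changes when 1 or both isoforms are depleted.

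Collagens and laminins form the fibres and basement membranes that cells attach to, and prolyl hydroxylases and lysyl oxidases make collagen stable by modifying its residues. Matricellular proteins such as tenascin-C and thrombospondin-1 act on cell adhesion rather than as structural parts, while TIMPs and RECK restrain the metalloproteases that degrade the matrix. Syndecans and glypicans carry heparan sulfate chains at the cell surface and bind matrix proteins and growth factors. Osteosarcoma cells derive from bone-forming tissue, whose main matrix protein is type I collagen.

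The PAN3 values showed no clear depletion, but they could not decide whether the labels hold. PAN3 was listed as 1 transcript, which does not separate its isoforms, and its values were low and uneven. FPKM are fragments scaled to transcript length and library size. The PAN3 mean was 0.988 FPKM in the control, 0.898 in the long-labelled, 2.51 in the short-labelled and 1.45 in the both-labelled libraries. In time order the control libraries held 1.16, 1.33, 0.636, 0.4, 2.4 and 0 FPKM. The long-labelled libraries held 0.448, 1.19, 0.376, 0.427, 1.7 and 1.25 FPKM, the short-labelled 1.76, 1.84, 1.76, 2.97, 4.0 and 2.72, and the both-labelled 1.66, 0.411, 0.713, 2.49, 1.72 and 1.7. The series are therefore called long-labelled, short-labelled and both-labelled throughout, and each direction rests on those labels. The nuclease gene PAN2 stood at 8.5 to 11.9 FPKM across the control libraries. It was at 0 in 1 long-labelled library, in all short-labelled libraries but that of 0.5 h (6.12 FPKM) and in all both-labelled libraries but that of 1 h (5.83 FPKM), and such zeros can be failed estimates. FPKM summed to 324023 to 384231 per library and the read depth is unknown. Of the osteoblast markers RUNX2, SP7, ALPL, IBSP, SPP1 and BGLAP, 0 of 6 reached a mean of 1 FPKM, and BGLAP was listed at 0 in every library. The summed osteoblast markers ranged over the control libraries from 0.136 to 0.683 FPKM, and they lay between 0.246 and 0.538 in the long-labelled, 0.982 and 2.33 in the short-labelled and 0.355 and 0.913 in the both-labelled libraries. Marker lists of epithelial, endothelial, leukocyte and fibroblast cells also had 0 genes at a mean of 1 FPKM, with sums of at most 3.21 FPKM in any library.

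A promoter is shown for 4 members that carry the level differences described here: TGFBI and RECK, which were higher than the control in all 3 other series, SDC4, which was higher in only the short-labelled and both-labelled series, and THBS1, which was lower in all 3. Each sequence runs 5′ to 3′ on the strand of the gene, from 250 bases before to 50 bases after its start, and comes from RefSeq on GRCh38.p14. Capitals mark GC boxes (GGGCGG on either strand) and, in THBS1, a TEAD motif (GGAATG on either strand).
TGFBI, chr5:136028738-136029037, + strand: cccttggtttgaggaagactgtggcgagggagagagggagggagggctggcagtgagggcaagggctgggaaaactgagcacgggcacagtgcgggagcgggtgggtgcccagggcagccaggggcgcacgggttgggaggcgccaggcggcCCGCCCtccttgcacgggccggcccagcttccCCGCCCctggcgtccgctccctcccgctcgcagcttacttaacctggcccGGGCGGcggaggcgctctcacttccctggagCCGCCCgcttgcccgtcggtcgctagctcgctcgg
RECK, chr9:36036663-36036962, + strand: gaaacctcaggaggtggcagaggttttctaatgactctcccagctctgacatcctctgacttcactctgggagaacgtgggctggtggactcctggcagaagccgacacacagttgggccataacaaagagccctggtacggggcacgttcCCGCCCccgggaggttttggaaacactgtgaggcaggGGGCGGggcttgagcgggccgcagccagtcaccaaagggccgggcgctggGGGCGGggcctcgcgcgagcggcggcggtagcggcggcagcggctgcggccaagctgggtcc
SDC4, chr20:45348375-45348674, - strand: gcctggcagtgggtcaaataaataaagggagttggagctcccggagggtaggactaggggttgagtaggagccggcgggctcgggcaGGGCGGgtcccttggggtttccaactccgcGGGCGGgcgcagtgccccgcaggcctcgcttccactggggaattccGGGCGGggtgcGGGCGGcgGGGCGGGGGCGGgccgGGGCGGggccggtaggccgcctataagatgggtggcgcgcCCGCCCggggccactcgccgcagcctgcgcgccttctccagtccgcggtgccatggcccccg
THBS1, chr15:39580829-39581128, + strand: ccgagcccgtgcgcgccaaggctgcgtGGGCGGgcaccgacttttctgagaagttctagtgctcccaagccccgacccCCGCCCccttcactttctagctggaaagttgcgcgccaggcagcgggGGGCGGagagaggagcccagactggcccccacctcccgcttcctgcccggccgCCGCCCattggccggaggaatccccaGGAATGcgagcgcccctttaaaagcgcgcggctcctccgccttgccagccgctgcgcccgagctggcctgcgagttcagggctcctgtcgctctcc
The SDC4 window holds 8 GC boxes, the TGFBI window 4, the THBS1 window 4 and the RECK window 3. A GC box occurs in 44.95% of 35116 RefSeq promoters of this length, and in 31 of the 40 promoters found for 35 of the members. GGAATG occurs in 14.03% of all promoters and in 6 of those 40, those of COL12A1, FBN1, P4HA2, SPARC, THBS1 and THBS2. The AP-1 motif TGANTCA, with N for any base, occurs in 7.71% of all promoters and in 0 of the 40, and the TATA motif TATAAA in 11.53% and in 5. The matches within these windows do not overlap, and they were not tested for binding of any factor.

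Of the 46 members, 32 reached a mean of 1 FPKM over the 24 libraries (69.6%), beside 43.2% of all gene symbols. The other 14 stayed under it, among them the genes of fibronectin (FN1, 0.387 FPKM), osteonectin (SPARC, 0.433 FPKM), type I collagen α2 (COL1A2, 0.0135 FPKM) and type III collagen (COL3A1, 0.0333 FPKM). The others under that mean were COL6A2, COL8A1, COL11A1, COL18A1, THBS2, FBN2, BGN, LOXL1, MMP2 and MMP14. COL1A1 and COL7A1 passed it but were listed at 0 next to values of at least 1 FPKM in time, and were not tested. The remaining 30 passed the filter on low values and were tested with limma among 7860 genes. Per length, the most abundant was TIMP1, with a mean of 791 FPKM, followed by TIMP2 at 155 and SDC4 at 98.3. Together the members made up 0.249% to 0.428% of the FPKM of a control library, 0.331% to 0.442% of a long-labelled, 0.559% to 0.747% of a short-labelled and 0.520% to 0.689% of a both-labelled library. The short-labelled and both-labelled libraries thus lay above all control and long-labelled libraries in that share, of which TIMP1 is a large portion. Without TIMP1 the share was 0.166% to 0.266% in the control, 0.184% to 0.240% in the long-labelled, 0.287% to 0.397% in the short-labelled and 0.236% to 0.333% in the both-labelled libraries, so that the both-labelled overlapped with the control and long-labelled libraries and the short-labelled did not. That share still holds SDC4, at 164 to 223 FPKM in the short-labelled and 41.0 to 48.9 in the control libraries. It also holds the unsteady COL1A1, at 0 to 217 FPKM in the short-labelled libraries. The separation therefore does not show a rise of the group as a whole. In bulk RNA, fewer cells that express a gene and less of its RNA per cell cannot be told apart.

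During actinomycin D in the control series, most matrix mRNAs gained on the median gene. A slope is given in log2 units of FPKM per h relative to the median of the tested genes in each library, with its standard error (SE), and a positive slope marks slower loss than the median gene or a rise in FPKM. That median moved from 3.73 at 0 h to 3.40 at 6 h on the log2(FPKM + 0.1) scale in the control series. With limma, 17 of 30 members had a slope other than 0 at an adjusted p under 0.05, where 46.9% of all tested genes did. All 17 lay above 0, where 30.1% of all genes did, and 0 below it, where 16.7% of all did. At an unadjusted p under 0.05 the counts were 19 and 1. Without centring on the median gene 14 members passed, 13 above 0 and 1 below, beside 3042 of all genes, of which 1103 lay above 0. The members' median slope was 0.15 and that of all genes 0.04, and 29 of 30 member slopes were positive. As the median slope of all genes was itself above 0, a positive slope alone does not set a member apart. The share of all genes with a positive slope was not counted.

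Collagen and laminin chains, proteoglycans, hydroxylases and TIMPs were among the 17. COL4A1, 1 chain of the type IV collagen of basement membranes, was listed at 11.2, 11.4, 11, 13.3, 14.4 and 15.8 FPKM in time order, a slope of 0.14 ± 0.02 (adjusted p = 4.35e-06). Its partner chain COL4A2 had a slope of 0.15 ± 0.03 and the laminin γ1 gene LAMC1 0.12 ± 0.02. COL5A1 (fibrillar collagen V), COL6A1 (collagen VI), LAMB1 and LAMB2 (laminin β chains) had slopes of 0.17, 0.25, 0.24 and 0.16. Both laminin β calls and that of COL5A1 were lost without the control library of 6 h, with adjusted p of 0.268, 0.328 and 0.0838 for LAMB1, LAMB2 and COL5A1, and that of LAMB1 also without that of 4 h (0.0615). Among proteoglycans, SDC4 (0.09 ± 0.01), GPC1 (0.15 ± 0.03), SDC1 (0.20 ± 0.04), agrin (AGRN, 0.19 ± 0.04) and SDC3 (0.63 ± 0.11) passed. Called slopes also belonged to the adhesion protein gene TGFBI (0.13 ± 0.02), the collagen prolyl hydroxylase subunits P4HA1 (0.14 ± 0.03) and P4HA2 (0.10 ± 0.02), TIMP2 (0.29 ± 0.08) and TIMP3 (0.30 ± 0.06). Neither SDC3 nor TIMP3 followed a steady course. Between 1 and 2 h SDC3 stepped from 2.24 to 14.1 FPKM, and TIMP3 fell from 40.8 to 16.3 before it rose again. Without the control library of 0.5 h, where TIMP2 stood at 49.9 FPKM between 179 and 195, its slope was 0.16, and with all libraries of 6 h left out it did not pass (adjusted p = 0.0586). Without centring, where every slope is lower, P4HA2 (0.05, adjusted p = 0.0861), COL5A1 (0.0851), LAMB1 (0.0834) and LAMB2 (0.105) did not pass, and the slope of SDC4 was 0.04, that of TGFBI 0.07 and that of LAMC1 0.06. With only the control libraries TIMP3 (adjusted p = 0.054), TIMP2 (0.127) and LAMB1 (0.133) did not pass, nor did TIMP2 (0.0936), COL5A1 (0.1125) and LAMB2 (0.118) with quantile-normalised values. THBS1 was the only member with a negative slope, -0.09 ± 0.04, and did not pass (adjusted p = 0.0789). Its control values went from 67.1 FPKM at 0 h to 33.9 at 6 h.

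**Figure D1:**
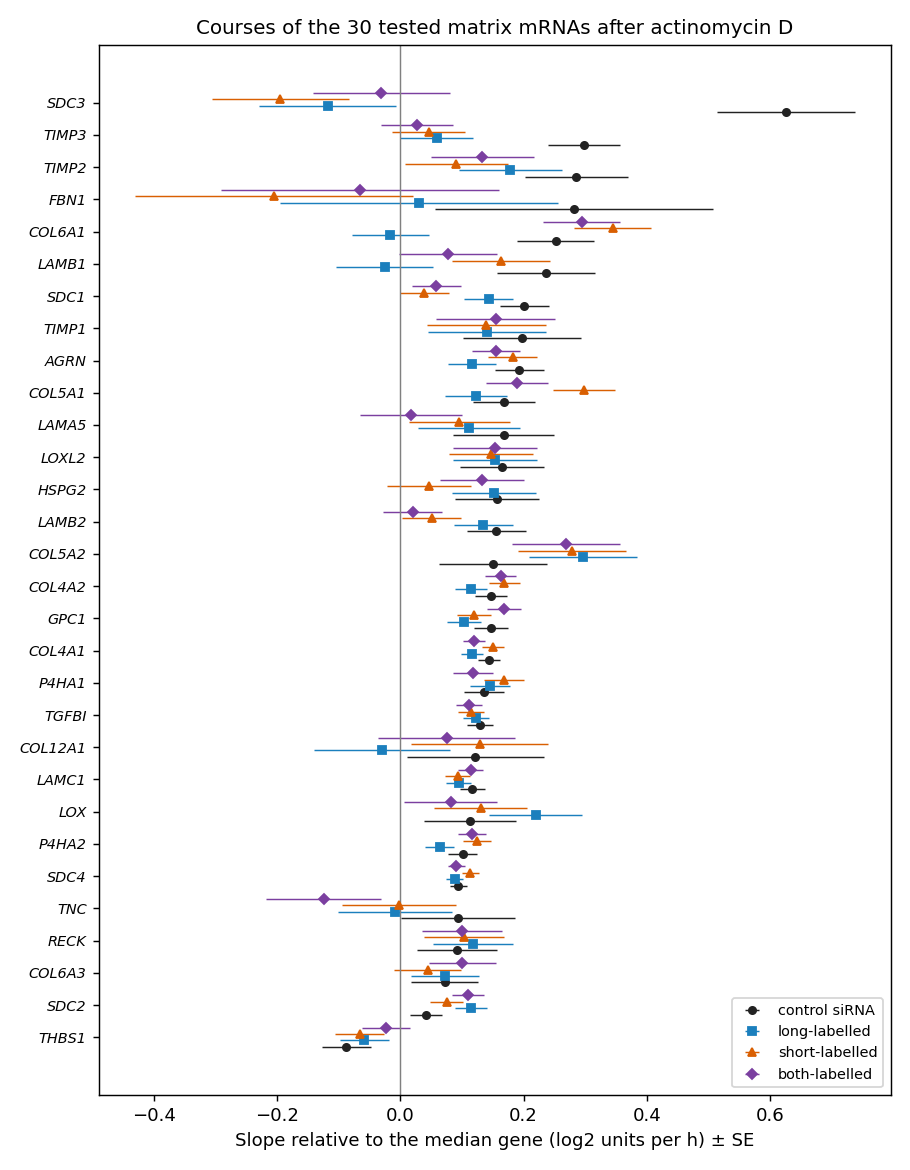
Slope of each of the 30 tested members in each series, in log2 units of FPKM per h relative to the median gene, with bars of 1 SE. Most members lie right of 0 in every series, and SDC3 stands out with 0.63 in the control series, -0.12 in the long-labelled, -0.19 in the short-labelled and -0.03 in the both-labelled.

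More members were called for a difference in level than in course, as among all tested genes (51.2% to 64.0% for level and 1.83% to 8.85% for course). Counts of calls do not show which of these differed more. A level difference is the mean over the 6 times of the difference in log2(FPKM + 0.1), a scale that understates the folds of low genes. With limma, 22 of 30 members differed from the control in the long-labelled series (13 higher, 9 lower), where 51.2% of all tested genes differed (27.1% higher and 24.1% lower). Against the same control libraries the short-labelled series had 18 members higher and 1 lower, where 63.5% of all genes differed (32.7% and 30.7%), and the both-labelled series had 17 higher and 3 lower, where 62.1% did (33.0% and 29.0%). Between the short-labelled and long-labelled series 16 members were higher and 4 lower in the short-labelled, where 64.0% of all genes differed (31.7% and 32.3%). The share of members called was thus close to that of all genes except in the long-labelled comparison, at 73.33%. Among the members called, the higher direction prevailed in the short-labelled and both-labelled series. COL6A3, RECK and TNC, called higher than the control in all 3 series, had control means of 0.999, 0.733 and 0.738 FPKM. They passed the filter of 1 FPKM only through the other series, where they were high, so these counts carry that selection. The median difference of the members was -0.01 in the long-labelled, 0.54 in the short-labelled and 0.46 in the both-labelled series, beside 0.03, 0.03 and 0.03 over all tested genes, and 0.53 beside -0.01 between the short-labelled and long-labelled. Because the 3 comparisons share their control libraries, and each series may stem from a single transfection, they are not separate findings, and the p-values measure only the scatter of the time points. How much of any level difference belongs to the siRNA and how much to the transfection cannot be told apart.

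By direction, 11 members were called higher than the control in all 3 series: AGRN, COL4A1, COL5A1, COL6A3, GPC1, LAMB1, LAMC1, RECK, TGFBI, TIMP1 and TNC. Of these, COL6A3, RECK and TNC passed the filter on low values only through the series where they were high. A further 4, the prolyl hydroxylase genes P4HA1 and P4HA2 and the syndecan genes SDC2 and SDC4, were called lower in the long-labelled and higher in the short-labelled and both-labelled series. THBS1 was called lower in all 3. Between the short-labelled and long-labelled series, AGRN, COL4A2, COL5A1 and LAMC1 were the members called lower in the short-labelled, and without the filter on low values none of these 4 passed (adjusted p from 0.129 to 0.189). The 16 called higher there were COL6A3, GPC1, HSPG2, LAMA5, LAMB2, LOX, LOXL2, P4HA1, P4HA2, RECK, SDC2, SDC4, TIMP1, TIMP2, TIMP3 and TNC. Of the 14 members with other patterns against the control, COL5A2, COL6A1, FBN1, LAMA5 and SDC3 passed in none of the 3 series and the others in 1 or 2.

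**Figure D2:**
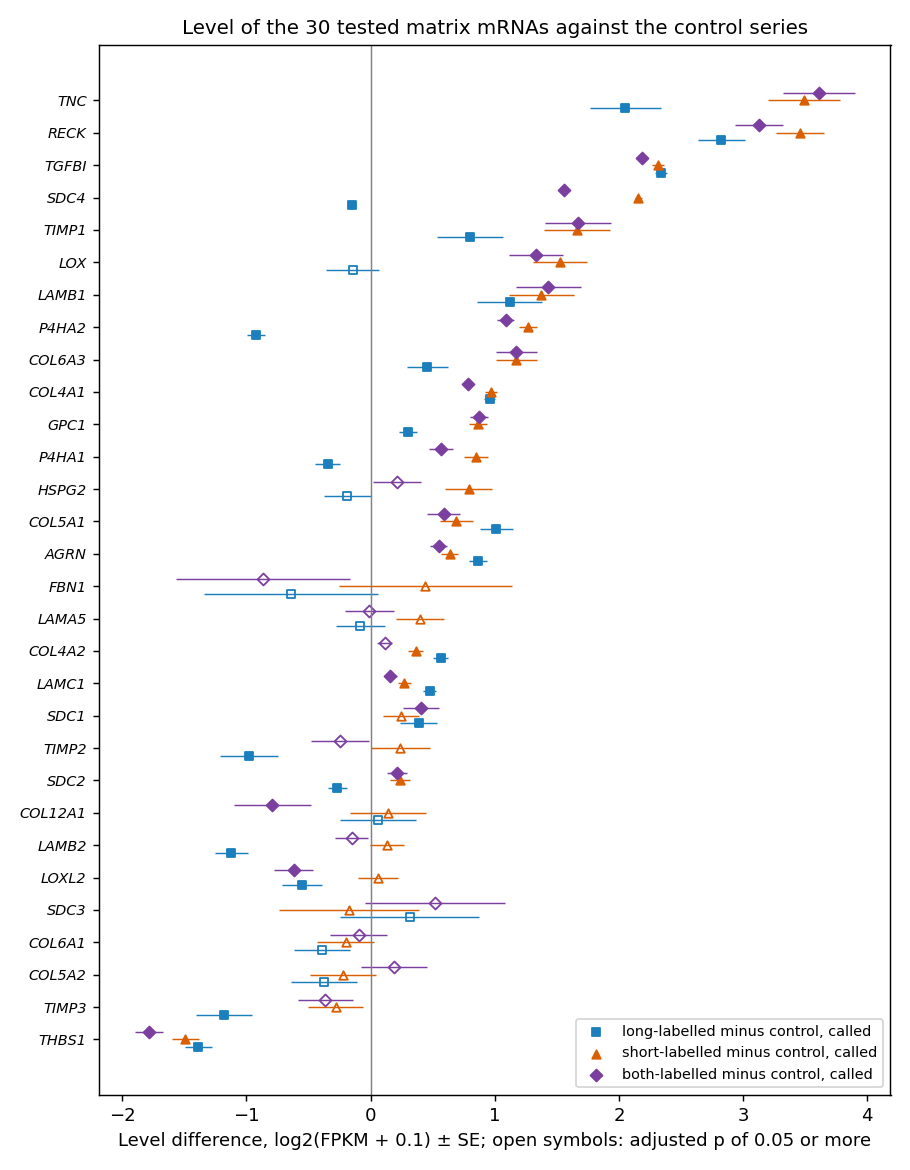
Level difference of each of the 30 tested members from the control series, in log2(FPKM + 0.1) with bars of 1 SE; filled symbols passed at an adjusted p under 0.05. TNC, RECK and TGFBI lie at 2.05 or more in all 3 series and THBS1 at -1.39 or less, while SDC4 and P4HA2 lie on opposite sides of 0 in the long-labelled and the other series.

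Among collagens, COL4A1 was higher in each of the other series than in the control. Its control libraries ranged from 11 to 15.8 FPKM with a median of 12.4. The long-labelled libraries ranged from 20.9 to 29.0 FPKM (median 24), the short-labelled from 17.9 to 28.9 (median 23.4) and the both-labelled from 18.0 to 25.0 (median 20.4). Every control library lay below every other library. The folds were 1.94, 1.96 and 1.72 (log2 differences 0.96, 0.97 and 0.78, each ± 0.05; adjusted p = 9.03e-12, 4.01e-12 and 8.33e-11), and the short-labelled series did not pass against the long-labelled (0.01 ± 0.05, adjusted p = 0.842). COL4A2, which lies head to head with COL4A1 in the genome, differed by 0.57 ± 0.06 in the long-labelled and 0.36 ± 0.06 in the short-labelled series, and by 0.11 ± 0.06 in the both-labelled, which did not pass (adjusted p = 0.115). It was lower in the short-labelled than in the long-labelled series by a log2 difference of -0.20 ± 0.06 (adjusted p = 0.00749), which was -0.11 and not called without the filter on low values (adjusted p = 0.189).

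COL5A1, which nucleates collagen fibrils, was higher in all 3 series. The control libraries ranged from 33.4 to 54.2 FPKM (median 40.4), the long-labelled from 61.5 to 99.3 (82.8), the short-labelled from 29.5 to 104 (58.7) and the both-labelled from 35.3 to 93.6 (60.9). The long-labelled libraries lay above all controls, the short-labelled series overlapped with them through its library of 0 h and the both-labelled through those of 0 and 1 h. Log2 differences were 1.01, 0.69 and 0.59, each ± 0.13 (adjusted p = 5.12e-06, 0.00021 and 0.000894). The short-labelled series was lower than the long-labelled by -0.32 ± 0.13 (adjusted p = 0.0425), a call lost without any single one of the libraries of 0, 0.5, 1 and 2 h of either series (adjusted p from 0.0689 to 0.144). With the short-labelled library of 0 h left out, it was -0.20. The difference changed sign over time, from -1.01 at 0 h and -0.51 to -0.36 at 0.5 to 2 h to 0.34 at 4 h and 0.12 at 6 h.

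COL6A3, a chain of the microfibrillar collagen VI, was low throughout, with a control mean of 0.999 FPKM, just under the filter of 1 FPKM. It ranged from 0.563 to 1.37 FPKM in the control (median 1.02), 1.02 to 1.5 in the long-labelled (1.38), 2.04 to 2.33 in the short-labelled (2.13) and 1.68 to 2.65 in the both-labelled series (2.26). The short-labelled and both-labelled libraries lay above every control library, and the long-labelled overlapped. The log2 differences were 1.18 ± 0.17 and 1.17 ± 0.17 in those series (adjusted p = 6.81e-06 and 7.36e-06) and 0.45 ± 0.17 in the long-labelled (adjusted p = 0.0287). With a pseudocount of 1 these were 0.75, 0.75 and 0.27. The long-labelled call was lost with the highest transcript in place of the sum (0.21, adjusted p = 0.285) and under 5 other changes of filter, centring or libraries fitted (0.0501 to 0.114), and also without the control library of 1 h (adjusted p = 0.0799) or 4 h (0.0909) and without the long-labelled library of 0 h (0.07), 1 h (0.0691) or 4 h (0.0654). COL12A1, a collagen that decorates fibrils, was called lower in the both-labelled series alone (-0.79 ± 0.31, adjusted p = 0.0331), at 2.19 to 7.16 FPKM against 2.28 to 9.44 in the control. That call was lost without any single control library but that of 1 h and without any both-labelled library but those of 1 and 2 h, with adjusted p from 0.0507 to 0.0985.

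The laminin chains differed from each other in direction. LAMC1, the γ1 chain shared by most laminins, ranged from 30.2 to 39.6 FPKM in the control (median 36.2), 41.3 to 52.9 in the long-labelled (48.2), 35.6 to 45.1 in the short-labelled (39.2) and 31.9 to 44.6 in the both-labelled series (36.7). Only the long-labelled libraries lay clear of the controls. Its log2 differences were 0.48, 0.27 and 0.16, each ± 0.05 (adjusted p = 9.01e-07, 0.000271 and 0.0167), and the last was lost without centring the FPKM on the median gene (0.09, adjusted p = 0.16), or with all libraries of 0 h (0.0567) or 6 h (0.0573) left out. LAMB1 differed by 1.12, 1.38 and 1.43, each ± 0.26 (adjusted p = 0.00162, 0.00018 and 0.000125). Its control course dipped to 6.70 FPKM at 1 h and 10.9 at 2 h between 19.1 and 25.1. The long-labelled difference was thus 2.51 at 1 h and 1.95 at 2 h, but 0.81 to 0.89 at 0, 0.5 and 4 h and -0.33 at 6 h. At 1 and 2 h the short-labelled difference was 2.16 and 2.32, against 0.70 to 1.09 at the other times. The both-labelled difference was 2.82 and 1.84 there, against 0.611 to 1.145 at the other times. LAMB1 ranged from 6.70 to 28.0 FPKM in the control and 22.1 to 42.6 in the long-labelled series, which overlapped. The short-labelled (28.9 to 56.7) and both-labelled libraries (36.9 to 52.7) lay above all controls. LAMB2, the β2 chain, was instead lower in the long-labelled series, at 14.7 to 26.3 FPKM against 34.1 to 61.8 in the control, without overlap. That fold was 0.46 (-1.12 ± 0.13, adjusted p = 1.61e-06), and the short-labelled series exceeded the long-labelled by 1.25 ± 0.13 (adjusted p = 2.35e-07). LAMA5, the α5 chain, passed only in the short-labelled against the long-labelled series (0.48 ± 0.20, adjusted p = 0.0406), a call lost without the long-labelled library of 0.5, 1, 2 or 4 h or any short-labelled library but that of 4 h (adjusted p from 0.0502 to 0.109).

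TNC and TGFBI were among the members with the largest increases and THBS1 had the largest decrease in each series. TGFBI, an integrin-binding protein induced by TGF-β, was listed at 4.99, 5.51, 6.02, 6.21, 6.24 and 7.40 FPKM in time order in the control. The long-labelled libraries held 26.6, 26.4, 28.1, 30.9, 32.2 and 36.5 FPKM, the short-labelled 24.7, 26.9, 27.2, 31.1, 26.3 and 36.8, and the both-labelled 23.6, 24.2, 24.7, 27.0, 27.4 and 32.7. All 3 series stood apart from the control at every time, and overlapped with each other. The folds were 5.06, 4.98 and 4.56 (log2 differences 2.34, 2.31 and 2.19, each ± 0.05; adjusted p = 1.96e-16, 1.17e-16 and 2.24e-16). Of 7860 genes, TGFBI ranked 12th by increase in the long-labelled, 51st in the short-labelled and 60th in the both-labelled series. The short-labelled and long-labelled series differed by -0.02 ± 0.05, which did not pass (adjusted p = 0.685).

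TNC, which encodes the anti-adhesive matrix protein tenascin-C, was barely expressed in the control. In time order it was listed there at 0.776, 1.08, 0.345, 0.623, 0.698 and 0.903 FPKM. It was at 3.80, 1.62, 5.00, 4.87, 2.18 and 2.78 FPKM in the long-labelled libraries, at 8.53, 7.77, 8.35, 11.9, 7.78 and 6.80 in the short-labelled and at 10.1, 13.9, 7.75, 11.7, 10.1 and 4.74 in the both-labelled. No control library reached the lowest of the others, and the short-labelled libraries all exceeded the long-labelled. Log2 differences from the control were 2.05, 3.49 and 3.61, each ± 0.29 (folds 4.14, 11.2 and 12.2; adjusted p = 1.04e-05, 8.27e-09 and 5.58e-09). The short-labelled series exceeded the long-labelled by 1.44 ± 0.29 (adjusted p = 0.000285). With a pseudocount of 1 the long-labelled difference was 1.32. TNC had a control mean of 0.738 FPKM, so it too passed the filter of 1 FPKM only through the series where it was high.

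THBS1, the gene of thrombospondin-1, which limits angiogenesis and activates latent TGF-β, was the only member called lower in all 3 series. Its values, given in full though the naming rule does not require it, were 67.1, 64.2, 51.7, 41.7, 46.8 and 33.9 FPKM in time order in the control. The long-labelled libraries held 23.5, 22.2, 17.5, 18.3, 15.2 and 14.8 FPKM, the short-labelled 16.1, 23, 20.0, 17.1, 12.1 and 13.4, and the both-labelled 18.7, 15.9, 10.6, 12.9, 12.8 and 12.2. Each control library lay above all libraries of the other series. Folds were 0.383, 0.356 and 0.291 (log2 differences -1.39, -1.49 and -1.78, each ± 0.11; adjusted p = 1.06e-08, 2.33e-09 and 2.14e-10).

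**Figure D3:**
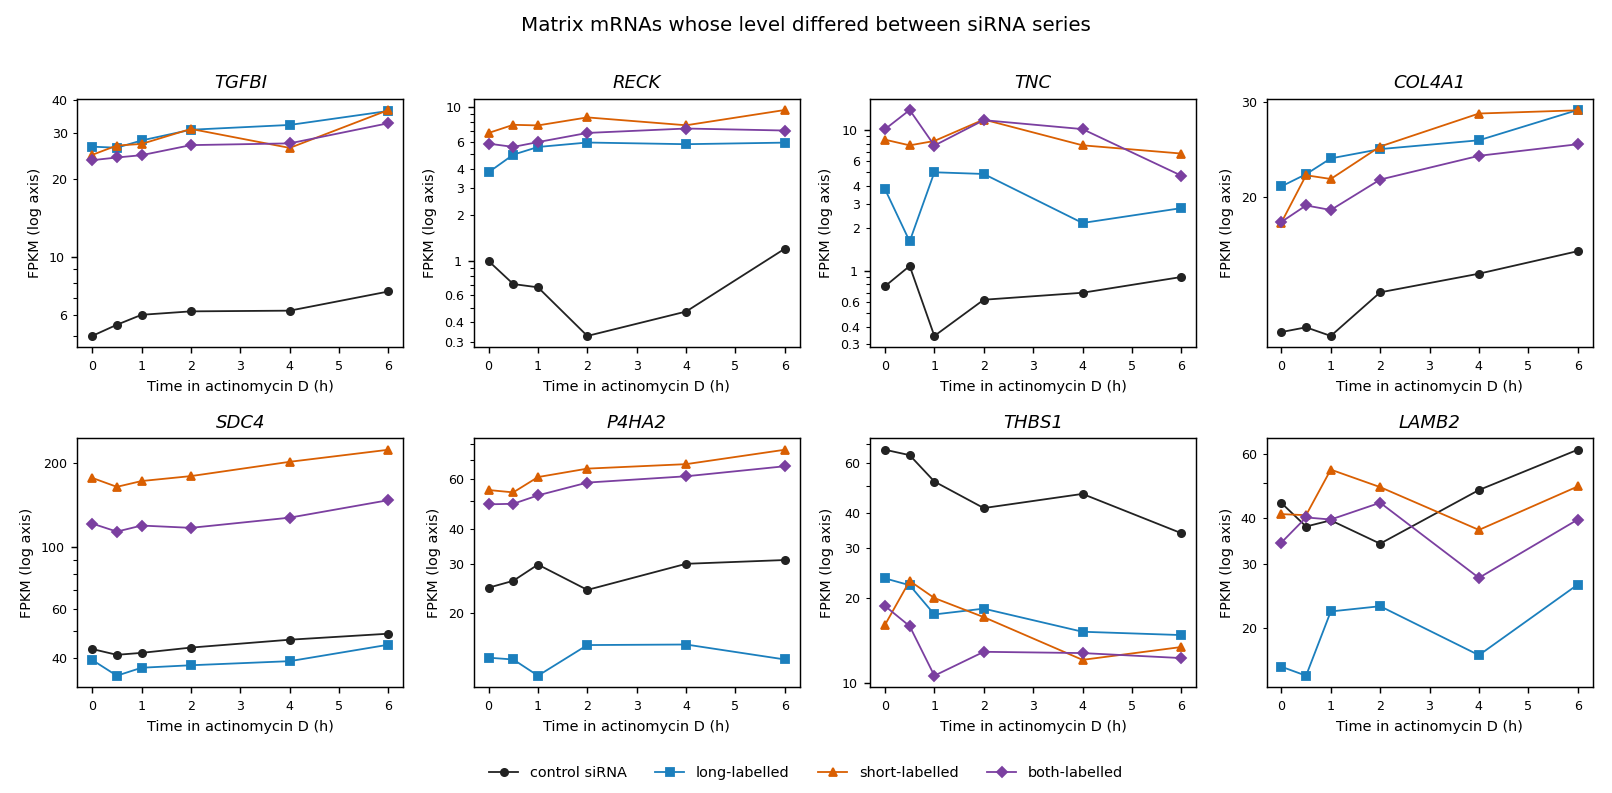
FPKM of 8 members (log axis, a different range in each panel) against the time in actinomycin D in h, with 1 library per point and 1 line per series. The control line lies below the others for TGFBI, RECK, TNC and COL4A1 and above them for THBS1, whereas SDC4 and P4HA2 separate the short-labelled and both-labelled series from the control and long-labelled series.

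The prolyl hydroxylase genes P4HA1 and P4HA2 were higher in the short-labelled than in the long-labelled series, which not all collagen-modifying enzymes were. P4HA2, a catalytic subunit of the prolyl hydroxylase that stabilises the collagen triple helix, was listed at 24.7, 26.1, 29.8, 24.2, 30.002 and 30.9 FPKM in time order in the control. It was at 13.9, 13.7, 12, 15.4, 15.5 and 13.7 FPKM in the long-labelled, at 54.8, 53.8, 60.9, 65.3, 67.7 and 76.2 in the short-labelled and at 48.8, 49.0, 52.5, 58.3, 61.3 and 66.6 in the both-labelled series. The long-labelled libraries lay below all controls and the short-labelled and both-labelled libraries above them. Log2 differences were -0.92, 1.27 and 1.09, each ± 0.07 (adjusted p = 6.71e-09, 4.59e-11 and 4.51e-10), and the short-labelled series was 4.57-fold above the long-labelled (adjusted p = 3.2e-14). P4HA1, the other main catalytic subunit, ranged from 16.7 to 23.8 FPKM in the control (median 19.5), 12 to 22.5 in the long-labelled (13.9), 27.6 to 48.3 in the short-labelled (31.1) and 22.7 to 35.0 in the both-labelled series (27.1). The short-labelled libraries lay above all controls, and the other series overlapped with them. Its log2 differences were -0.35, 0.85 and 0.57, each ± 0.10 (adjusted p = 0.0062, 5.32e-07 and 6.53e-05).

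Lysyl oxidases cross-link collagen and elastin. LOX was higher in the short-labelled (1.52 ± 0.22, adjusted p = 7.08e-06) and both-labelled series (1.33 ± 0.22, adjusted p = 3.45e-05), at 9.27 to 13.7 and 9.07 to 11.3 FPKM against 3.67 to 4.68 in the control. The long-labelled libraries ranged from 1.63 to 5.90 FPKM, and their difference of -0.14 ± 0.22 did not pass (adjusted p = 0.607). LOXL2 was lower in the long-labelled (-0.55 ± 0.16, adjusted p = 0.00737, but 0.0644 with only the libraries compared) and both-labelled series (-0.62 ± 0.16, adjusted p = 0.00259), and its difference of 0.06 ± 0.16 in the short-labelled did not pass.

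The protease inhibitors differed in direction. RECK, a membrane-anchored inhibitor of metalloproteases, was listed in time order at 1.00, 0.711, 0.677, 0.327, 0.471 and 1.21 FPKM in the control. The long-labelled libraries held 3.79, 4.93, 5.53, 5.91, 5.77 and 5.90 FPKM, the short-labelled 6.82, 7.71, 7.64, 8.61, 7.66 and 9.62, and the both-labelled 5.81, 5.54, 5.95, 6.83, 7.29 and 7.08. No control library overlapped with any other, and the short-labelled libraries all exceeded the long-labelled. The log2 differences were 2.83, 3.46 and 3.13, each ± 0.19 (folds 7.09, 11 and 8.76; adjusted p = 1.17e-09, 3.73e-11 and 1.64e-10), which ranked 5th, 10th and 11th highest of 7860 genes. RECK had a control mean of 0.733 FPKM, so it passed the filter of 1 FPKM only through the series where it was high. Its ranks and p-values carry that selection. The short-labelled series exceeded the long-labelled by 0.63 ± 0.19 (adjusted p = 0.00808).

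TIMP1, a secreted inhibitor of most matrix metalloproteases, was higher in all 3 series. It ranged from 90.6 to 625 FPKM in the control (median 431), 479 to 762 in the long-labelled (580), 894 to 1336 in the short-labelled (1052) and 876 to 1432 in the both-labelled series (997). The short-labelled and both-labelled libraries lay above all controls. Log2 differences were 0.80, 1.67 and 1.67, each ± 0.26 (adjusted p = 0.0173, 2.74e-05 and 2.77e-05), but the control library of 2 h, at 90.6 FPKM between 474 and 525, takes part in each. Without it the long-labelled difference was 0.41 (adjusted p = 8.16e-06), and without the long-labelled library of 2 h it was 0.67 and not called (0.0527), nor was it called with only the libraries compared (0.084). TIMP2 and TIMP3 were lower in the long-labelled series, by -0.98 ± 0.23 (adjusted p = 0.00197) and -1.18 ± 0.22 (adjusted p = 0.000259). TIMP2 was at 55.1 to 112 FPKM there against 49.9 to 277 in the control, and TIMP3 at 10.7 to 11.7 against 15.0 to 44.5. Over the times the TIMP3 difference ran from -1.92 to -0.34. In the short-labelled and both-labelled series neither passed against the control. Both were called higher in the short-labelled than in the long-labelled series, by 0.89 to 1.78 over the times for TIMP2 and 0.83 to 0.98 for TIMP3.

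Of the proteoglycans, SDC4 showed the sharpest contrast. This syndecan, which takes part in focal adhesions, was listed in time order at 43.0, 41.0, 41.7, 43.6, 46.5 and 48.9 FPKM in the control and at 39.3, 34.5, 36.9, 37.6, 38.9 and 44.6 in the long-labelled series. The short-labelled libraries held 177, 164, 172, 179, 202 and 223 FPKM and the both-labelled 121, 113, 119, 117, 127 and 147. The short-labelled libraries lay above all both-labelled ones, and these above the control and long-labelled libraries, which overlapped with each other. Log2 differences from the control were -0.15, 2.16 and 1.56, each ± 0.03 (folds 0.904, 4.46 and 2.95; adjusted p = 0.000687, 3.23e-19 and 4.04e-17). The short-labelled series exceeded the long-labelled by 2.30 ± 0.03 (4.94-fold, adjusted p = 1.05e-19). The difference between the short-labelled and both-labelled series was not tested.

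SDC2, a syndecan of mesenchymal cells, had differences of the same signs but small ones. The control libraries ranged from 11.1 to 16.3 FPKM (median 13.2), the long-labelled from 9.57 to 13.0 (10.7), the short-labelled from 14 to 16.0 (15.2) and the both-labelled from 13.6 to 18.0 (14.1), so that all 3 overlapped with the control. Log2 differences were -0.27, 0.24 and 0.21, each ± 0.08 (adjusted p = 0.009, 0.0138 and 0.0258). Without centring the FPKM the latter pair did not pass (0.15, adjusted p = 0.114, and 0.14, adjusted p = 0.142), and with only the libraries compared none did (adjusted p from 0.0517 to 0.118). Without the control library of 6 h the short-labelled difference was 0.15 and the both-labelled 0.12, and the latter was no longer called (adjusted p = 0.0633), nor was it without the both-labelled library of 0.5 h (0.0519) or 6 h (0.0799). SDC1, the syndecan of epithelia, was higher in the long-labelled (0.39 ± 0.15, adjusted p = 0.0356) and both-labelled series (0.41 ± 0.15, adjusted p = 0.0233), neither of which was stable. The first was lost without the control library of 0, 0.5 or 1 h or the long-labelled library of 0 or 6 h (adjusted p from 0.0779 to 0.11), and the second without the same control libraries or the both-labelled library of 0.5 or 1 h (0.0543 to 0.0726).

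GPC1, a glypican held by a lipid anchor, was higher in all 3 series. The control ranged from 20.4 to 30.8 FPKM (median 24.3), the long-labelled from 25.6 to 35.3 (29.1), the short-labelled from 37.6 to 54.3 (41.1) and the both-labelled from 27.4 to 56.0 (44.6). Only the short-labelled libraries lay clear of the control. Log2 differences were 0.30, 0.87 and 0.87, each ± 0.07 (adjusted p = 0.00223, 1.18e-08 and 1.12e-08). AGRN, a basement membrane proteoglycan that clusters acetylcholine receptors at the synapse, ranged from 16.8 to 38.3 FPKM in the control (median 26.8), 34.2 to 53.7 in the long-labelled (49.2), 24.7 to 50.6 in the short-labelled (39.0) and 26.3 to 47.8 in the both-labelled series (37.6). All ranges overlapped, yet at each of the 6 times AGRN was higher than in the control, by 0.86, 0.64 and 0.55, each ± 0.07 (adjusted p = 1.2e-08, 3.7e-07 and 2.41e-06). HSPG2, the gene of perlecan, passed against the control in the short-labelled series alone (0.79 ± 0.19, adjusted p = 0.00146) and exceeded the long-labelled there by 0.98 ± 0.19 (adjusted p = 0.000212).

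Only 2 matrix mRNAs, SDC3 and COL6A1, were called for a different course. Against the control, the long-labelled series had 2 of 30 members with a lower slope, where 1.83% of all tested genes differed (1.25% higher and 0.585% lower). The short-labelled series had 1 of 30 with a lower slope, where 8.85% of all did (4.21% higher and 4.64% lower), and the both-labelled 1 of 30, where 7.05% did (3.83% and 3.22%). In the short-labelled series 1 member of 30 had a higher slope than in the long-labelled, where 6.30% of all genes differed (2.23% higher and 4.07% lower). The members' share called was thus below that of all genes except in the long-labelled comparison with the control, where it was above it by 2 genes whose calls rested on single libraries.

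SDC3, the neuronal syndecan, followed different courses. It was listed in the control at 1.34, 2.31, 2.24, 14.1, 13.5 and 14.9 FPKM in time order. The long-labelled libraries held 8.68, 8.60, 6.97, 8.58, 2.21 and 6.60 FPKM, the short-labelled 6.55, 6.33, 4.93, 4.17, 3.77 and 2.16, and the both-labelled 6.39, 8.59, 9.26, 7.13, 6.63 and 5.76. The control stepped up between 1 and 2 h, during a block of transcription, and its libraries of 0 to 1 h lay below those of the other series at the same times. The slope differences from the control were -0.74 ± 0.16, -0.82 ± 0.16 and -0.66 ± 0.16 log2 units per h (adjusted p = 0.0333, 0.00545 and 0.0243). The short-labelled call did not survive the removal of all libraries of 0 h (adjusted p = 0.0516) or of the short-labelled library of 6 h (0.0939), and the both-labelled one without the control library of 0 h (0.0764), 0.5 h (0.0539) or 4 h (0.0552) or the both-labelled library of 0.5 h (0.0514) or 6 h (0.214). In the long-labelled comparison the call ended on removal of the control library of 0 h (0.0923), 0.5 h (0.0762), 1 h (0.0565) or 4 h (0.068), of the long-labelled library of 0 h (0.097), 0.5 h (0.0655) or 1 h (0.0554), or of the both-labelled library of 0.5 h (0.0508). With the control library of 6 h left out, the long-labelled and both-labelled differences were -1.12 and -1.04, and without the long-labelled library of 6 h the former was -1.16.

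COL6A1 had a slope of -0.02 in the long-labelled series and of 0.25 to 0.34 in the others. In time order it was listed at 4.29, 4.25, 6.02, 5.70, 8.80 and 9.41 FPKM in the control, at 3.42, 5.33, 5.17, 4.92, 6.77 and 2.6 in the long-labelled, at 2.69, 3.33, 3.91, 5.29, 9.06 and 9.06 in the short-labelled and at 3.37, 3.78, 4.34, 5.55, 9.18 and 9.08 in the both-labelled series. The long-labelled value of 6 h was the lowest of that series. The slope was lower in the long-labelled series than in the control by -0.27 ± 0.06 (adjusted p = 0.0269) and higher in the short-labelled than in the long-labelled by 0.36 ± 0.06 (adjusted p = 0.00119). Without the long-labelled library of 6 h these were -0.11 (adjusted p = 0.6) and 0.21 (adjusted p = 0.0987). The first call was also lost without the control library of 6 h (-0.17, adjusted p = 0.413) or 0.5 h (0.0662) or the long-labelled library of 0.5 h (0.0608). When only the libraries of the 2 series compared were fitted, none of the calls on course remained, with adjusted p from 0.0575 to 0.311.

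The members with the next smallest p did not pass. In the long-labelled series these were TIMP3 (-0.24 ± 0.08, adjusted p = 0.189), AGRN (-0.08 ± 0.03, 0.22), LAMB1 (-0.26 ± 0.12, 0.336) and SDC2 (0.07 ± 0.03, 0.346). In the short-labelled series they were TIMP3 (-0.25 ± 0.08, adjusted p = 0.0742), SDC1 (-0.16 ± 0.06, 0.111), COL5A1 (0.13 ± 0.05, 0.132), LAMB2 (-0.10 ± 0.06, 0.293) and TIMP2 (-0.19 ± 0.11, 0.332). The both-labelled series had TIMP3 (-0.27 ± 0.08, adjusted p = 0.064), LAMB2 (-0.14 ± 0.06, 0.172), SDC1 (-0.14 ± 0.06, 0.179), SDC2 (0.07 ± 0.03, 0.256) and LAMA5 (-0.15 ± 0.09, 0.413). TIMP3 led in each of these. Its control course alternated, at 15.0, 15.8, 40.8, 16.3, 42.7 and 44.5 FPKM in time order, while the other series stayed within 10.7 to 11.7, 19.1 to 21.4 and 18.5 to 21.1 FPKM. Between the short-labelled and long-labelled series the next were COL5A1 (0.18 ± 0.05, with an adjusted p that rounds to 0.05 and missed the threshold), AGRN (0.07 ± 0.03, 0.208), SDC4 (0.03 ± 0.01, 0.287), COL4A2 (0.05 ± 0.03, 0.289) and P4HA2 (0.06 ± 0.03, 0.341). Of the members with large level differences, TGFBI had slopes of 0.13 in the control and 0.12, 0.11 and 0.11 in the others, and SDC4 of 0.09 in the control and 0.09, 0.11 and 0.09 in the others. Those of TNC were more spread, at 0.09 in the control and -0.01, -0.002 and -0.12 in the others, and no difference passed.

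**Figure D4:**
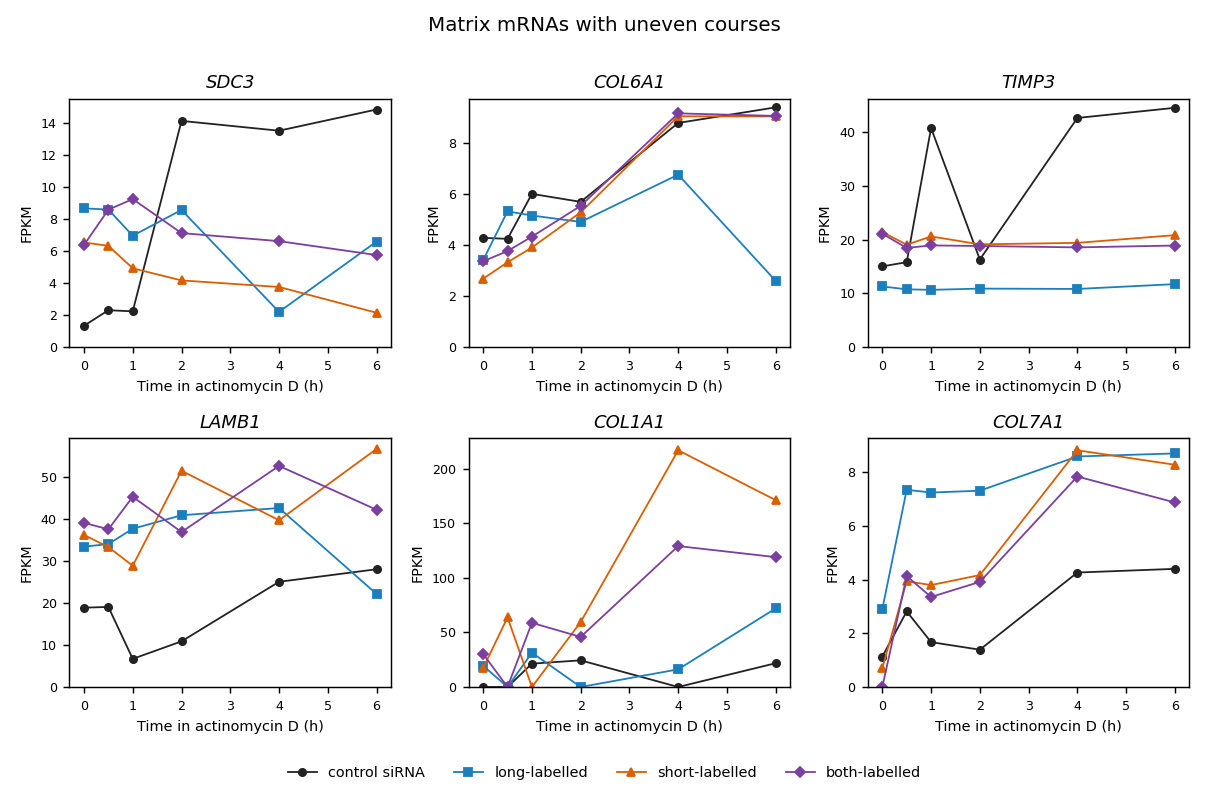
FPKM of 6 members whose listed values change abruptly between neighbouring times, against the time in actinomycin D in h, with 1 library per point. The control steps of SDC3 (2.24 to 14.1 FPKM between 1 and 2 h) and TIMP3 (40.8 at 1 h, 16.3 at 2 h) and the zeros of COL1A1 are visible.

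Type I collagen could not be followed reliably. COL1A1, which encodes its α1 chain, was listed in time order at 0, 0, 21.4, 24.4, 0 and 21.8 FPKM in the control, at 19.5, 0, 31.5, 0, 16.2 and 72.1 in the long-labelled, at 17.4, 63.8, 0, 59.6, 217 and 171 in the short-labelled and at 30.3, 0, 58.9, 45.9, 129 and 119 in the both-labelled series. Every library not at 0 held 16.2 FPKM or more, and no test was made. The highest values were those of 4 and 6 h in the short-labelled and both-labelled series. COL7A1, which forms the anchoring fibrils of skin, was at 1.13 to 4.40 FPKM in the control, 2.90 to 8.70 in the long-labelled, 0.699 to 8.82 in the short-labelled and 0 to 7.84 in the both-labelled series, and its single 0 was at 0 h in the last. FBN1, the fibrillin of elastic microfibrils, alternated between low and high values, from 0.382 to 4.20 FPKM over all libraries, and had the largest SE of the members (0.70). COL5A2, the partner chain of COL5A1, ranged from 10.5 to 54.7 FPKM over all libraries and passed in no comparison.

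Genes that work with the members were counted from 4 wider lists. The genes named are up to 5 of each list with the smallest adjusted p in any comparison, so they are not typical of their list. Their counts stand beside the shares of all tested genes that differed in level, 51.2% in the long-labelled series (27.1% higher, 24.1% lower), 63.5% in the short-labelled (32.7%, 30.7%) and 62.1% in the both-labelled (33.0%, 29.0%). Of 19 tested genes for collagen processing, 9 were higher and 4 lower than the control in the long-labelled series, 10 and 4 in the short-labelled, and 11 and 5 in the both-labelled. P4HA3, a further prolyl hydroxylase subunit, was 3.67-fold, 4.20-fold and 4.18-fold higher in these series. Its partner subunit P4HB differed by log2 -0.13, 0.76 and 0.69, and the collagen prolyl isomerase gene PPIB by 0.52, 1.11 and 1.10, so that P4HB had the signs of P4HA1 and P4HA2 in each series. FKBP10, a procollagen chaperone, differed by -0.75, 0.15 and -0.13. P4HA3 did not pass between the short-labelled and long-labelled series (0.20, adjusted p = 0.165). PLOD1, a lysyl hydroxylase of collagen, averaged 100 FPKM in the control, 97.3 in the long-labelled, 8.13 in the short-labelled and 11.9 in the both-labelled series. Its level differences were -3.52 ± 0.15 and -2.98 ± 0.15 in the latter pair (adjusted p = 1.1e-12 and 1.15e-11), and its slope was also lower there, by -0.23 ± 0.02 and -0.20 ± 0.02 (adjusted p = 2.09e-06 and 2.03e-05). Between 0 and 6 h PLOD1 went from 79.5 to 126 FPKM in the control and from 9.85 to 5.76 in the short-labelled series.

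Of 18 tested genes for other matrix proteins, 4 were higher and 11 lower in the long-labelled series, 5 and 10 in the short-labelled and 3 and 12 in the both-labelled. LAMB3, a laminin chain of epithelial anchoring, differed by -0.18, which did not pass (adjusted p = 0.32), 2.53 and 2.01, and the calcium-binding matrix protein gene SMOC1 by -0.71, -2.80 and -2.67. VTN (vitronectin) differed by -1.72, 0.71 and -0.38 and COL4A5 by -1.19, -0.53 and -0.86. NOV, a matricellular gene, differed by 0.72, by -0.10, which did not pass (adjusted p = 0.112), and by -0.21. The median difference of this list was -0.38, -0.43 and -0.64.

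Of 16 tested matrix proteases and inhibitors outside the members, 2 were higher and 8 lower, 4 and 7, and 5 and 7 in the same order. The urokinase receptor gene PLAUR differed by -0.52, 1.19 and 0.81 and the protease inhibitor gene SERPINE2 by -1.81, -0.29 and -0.55. HTRA1, a secreted protease, was higher by 0.97, 0.55 and 0.67, while the lysosomal protease gene CTSD differed by -0.16, -0.87 and -0.96 and MMP15 by -0.98, -0.77 and -0.87. With limma the slope of MMP15 was also lower in the short-labelled and both-labelled series, by -0.08 and -0.07 (adjusted p = 0.0198 and 0.0356). Of 15 tested genes for other proteoglycans and heparan sulfate synthesis, 2 were higher and 9 lower, 6 and 9, and 4 and 10. The chondroitin sulfate proteoglycan gene CSPG4 differed by -1.79, -1.38 and -1.72, and XYLT2 and B4GALT7, which start the glycosaminoglycan linker, by -1.54, -0.59 and -0.996 and by -0.24, -1.11 and -0.95. TGFBR3 (betaglycan) differed by -2.55, 0.93 and -0.62. CD44, the hyaluronan receptor, differed by -0.13, which did not pass (adjusted p = 0.119), 0.77 and 0.60. Median differences of these lists were -0.21, -0.03 and 0.01 for the proteases and inhibitors, -0.86, -0.58 and -0.94 for the proteoglycans and 0.10, 0.15 and 0.31 for collagen processing. In the control course, 15 of 19, 10 of 18, 12 of 16 and 5 of 15 genes of the lists, in the order given here, had a called slope above 0, where 30.1% of all tested genes did, so that the last lies near the background. Of the other matrix proteins 2 were called below 0 and of the other lists 0, where 16.7% of all genes were. In the comparisons of course with the control between 0 and 3 of the 15 to 19 tested genes of a list were called. Of all tested genes 1.83% were called in the long-labelled, 8.85% in the short-labelled and 7.05% in the both-labelled comparison.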

How the data were processed

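Per the labels' protocols, siRNAs were transfected with a lipid reagent and cytoplasmic RNA was purified on columns for sequencing. The submitters' processing notes name TopHat 1.3.3 and the build hg19. The tool that made the FPKM values is not given in the sources used here. The authors deposited 1 table of FPKM for 37382 RefSeq transcripts, which were summed here per gene symbol. FPKM scales to library size and transcript length, so the values are relative levels of unknown depth, and reads that gene copies share may be split among them.

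Transcripts without a symbol (154, with 0.014% of the FPKM) were left out. A mean of 1 FPKM or more was reached by 9898 genes, of which 464 held a dash and 1574 had a 0 next in time to at least 1 FPKM in the same series, a rule made after the values had been seen. On log2(FPKM + 0.1), the median of the 7860 remaining genes was subtracted from each library. Differences were fitted in limma 3.58.1 (R 4.3.3, mean-variance trend) to all 24 libraries, with time as a factor and series for levels, plus series by hours for slopes, and with straight lines for the control slope. The scatter of the time points is the error, and replicate numbers in the series are time points, so time is the block that the series share; residuals of same-time libraries correlated at -0.007 to 0.249. Benjamini-Hochberg adjusted p under 0.05 over the 7860 genes was called. The fits were tested on simulated data. Members and lists were chosen with earlier results of these data known. Members called in a comparison are named, with the smallest p up to 6 where fewer were called. Values are given for the 14 members called most often and SDC3, and for up to 5 genes of each wider list, chosen by the smallest adjusted p in any comparison. Alternatives were other pseudocounts, filters, centrings, models and left-out libraries.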

Additional observations from a re-analysis of the deposited data

Results flagged for a closer look

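In 10 of 81 called level differences, 1 of the 6 times stood far from the other 5. TIMP1 was the clearest case, as its control library of 2 h was listed at 90.6 FPKM: at that time the log2 differences were 2.75 in the long-labelled, 3.71 in the short-labelled and 3.58 in the both-labelled series, against 0.27 to 0.62, 1.14 to 1.46 and 1.11 to 1.53 at the other times. TIMP2 differed from the control by 0.73 at 0.5 h in the long-labelled series, where the control stood at 49.9 FPKM, and by -1.63 to -1.18 at the other times. SDC2 differed by 0.24 at 6 h in the long-labelled series (-0.43 to -0.29 elsewhere) and by 0.72 at 6 h in the both-labelled (-0.06 to 0.23 elsewhere), and its control library of 6 h, at 11.1 FPKM, was the lowest of that series. P4HA1 differed by 0.13 at 4 h in the long-labelled series against -0.56 to -0.32 at the other times. SDC4 differed by 2.27 at 6 h in the short-labelled series, beside 2.11 to 2.16, so the lone time changed little. In the both-labelled series TNC differed by 2.29 at 6 h (3.64 to 4.22 elsewhere) and GPC1 by 0.52 at 0 h (0.88 to 1.01 elsewhere). The threshold used is one that chance passes in about 1 in 20 groups of independent values; no rate was measured here, and the same control libraries enter several of these.

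The called differences in course were also singled out, since the slopes of 2 series differed by a test of the difference itself. SDC3 had slope differences from the control of -0.74 (long-labelled), -0.82 (short-labelled) and -0.66 (both-labelled) log2 units per h, and COL6A1 of -0.27 (long-labelled). COL6A1 also differed by 0.36 between the short-labelled and long-labelled series.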

How the results depend on the processing

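Over all alternatives, 66 of 81 called level differences of members kept their direction and their call, as did 11 of 17 control slopes and 0 of 5 slope differences. Without a filter on low values the control slope had 30 of 41 members called in place of 17 of 30, with more genes tested and another centre. Of all genes, 8260 of 14744 were called without it, in place of 3683 of 7860. The slope of the long-labelled against the control series had 2 members called, 0 without that filter, 0 with only the libraries compared and 1 with no replicate block, where time as the shared block was dropped. Of all genes, 144, 65, 0 and 54 were called in the same order. With only the libraries compared the counts for slopes were also 0 in the short-labelled and both-labelled comparisons with the control and 0 in the short-labelled against the long-labelled, each 1 otherwise; the last became 2 with a pseudocount of 0.01 and 2 with a filter at 5 FPKM. With no replicate block 17 in place of 20 members differed in level between the short-labelled and the long-labelled (AGRN, COL5A1 and LAMA5 were lost), and the block moved no other count of members. Of all genes, 4882 in place of 5027 differed in that comparison. Leaving out libraries gave 15 to 19 called control slopes, 20 to 22 called levels against the control in the long-labelled, 19 to 21 in the short-labelled and 17 to 20 in the both-labelled series, 18 to 20 in the short-labelled against the long-labelled, and 0 to 2 slope differences in each comparison. Of all 7860 genes, 2634 to 3684 control slopes were called. For levels these were 3682 to 4058, 4647 to 5000, 4481 to 4910 and 4717 to 5049 in the same order, and for slope differences 7 to 703.

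Without centring on the median gene, 20, 18 and 17 of 30 members were called in level against the control, of which 11, 17 and 14 were higher. Of all 7860 genes, 4010, 4923 and 4866 were called in the same order, of which 1906, 2197 and 2288 were higher.

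Slope differences that changed sign had not passed. That of SDC2 against the control (0.07 in the long-labelled and 0.07 in the both-labelled series) ranged from -0.034 to 0.10 and from -0.043 to 0.10 when libraries were left out. The first was lowest when the control library of 6 h was dropped, the second when every library of 6 h was. That of LAMA5 in the both-labelled series (-0.15) ranged from -0.25 to 0.15, and was positive without the both-labelled library of 6 h. That of SDC4 between the short-labelled and long-labelled series (0.03) was -0.026 with quantile-normalised values. The cause was not tested. Without read counts, depth sets no stated limit on low members such as TNC, RECK and COL6A3 in the control.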
